A study of Arabidopsis thaliana with 31 samples.

Results

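Mitochondrial protein import, the prohibitin ring and matrix protein folding were followed in Arabidopsis thaliana seedlings through 35 nuclear genes of the 32833 listed in the expression tables. The set holds 6 prohibitin genes, 9 genes of the translocase of the outer membrane (TOM), 13 genes of the translocases of the inner membrane (TIM) and their small carriers, and 7 genes of matrix chaperones. The genes were chosen by function, and the set was selected because prohibitin levels were higher in the nrp1-1 nrp2-2 mutant than in Col-0. The levels in that comparison are therefore given as a description, without a test. Expression was measured by RNA sequencing of total RNA from whole seedlings at 12 days after germination, grown on soil in long days, in 31 libraries from 2 experiments.

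In experiment B, 5 libraries each came from the wild type Col-0, from gcn5-7, a mutant of the histone acetyltransferase gene GCN5, from the double mutant nrp1-1 nrp2-2, which carries mutations in the genes of the histone chaperones NRP1 and NRP2 (NAP1-related proteins), and from the gcn5-7 nrp1-1 nrp2-2 triple mutant. In experiment A, a smaller set, 2 libraries came from Col-0 and 3 each from gcn5-7, from arp6-1, a mutant of a subunit of the SWR1 complex that places the histone variant H2A.Z, and from the gcn5-7 arp6-1 double mutant. Each mutant genotype is represented by a single allele combination, and the labels do not say whether replicates came from separate cultures, so p-values measure the spread between these libraries. Values are TPM, a transcript's share of its library per transcript length, scaled between libraries by the authors with the TMM method (TMM-scaled TPM), so levels can be set side by side within a table. The 2 tables were scaled separately and are never compared with each other by level.

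Most mitochondrial proteins are made in the cytosol and must cross both mitochondrial membranes. TOM receptors bind the precursors and pass them through the TOM40 pore, small TIM proteins escort membrane proteins across the intermembrane space, and the TIM23 and TIM22 complexes move them into the matrix or the inner membrane. In the matrix, HSP70 with its exchange factor pulls and folds the incoming chain, and the HSP60 and CPN10 chaperonin encloses it for folding. Prohibitins are inner membrane proteins of type I and type II that assemble together into large rings, which hold proteases and other membrane proteins in place and are needed for normal mitochondria in plants.

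The mutated genes were read first. In Col-0 of experiment B, NRP2 ranged from 9.16 to 14.4 TMM-scaled TPM. It lay between 0 and 0.403 among the nrp1-1 nrp2-2 libraries, and each of the 5 libraries of the triple mutant lists it at 0. NRP1 ranged from 19.8 to 31.3 in Col-0, and its range was 4.38 to 9.28 with both nrp alleles and 9.7 to 13 with gcn5-7 added. ARP6 ranged from 18.2 to 36.1 in Col-0 of experiment A, from 0.109 to 0.363 in arp6-1 and from 0.291 to 0.775 in gcn5-7 arp6-1. GCN5 transcript was present in gcn5-7 of experiment B at 3.55 to 6.78, against 3.65 to 7.15 in Col-0, so its level does not check that label. Libraries held 10349961 to 16843655 reads on genes in experiment B and 38344892 to 39576728 in experiment A, recovered from the step size of the values. Libraries stood apart within groups in how a gene's deviation from its mean followed transcript length. Spearman's rho across genes ran from -0.502 to 0.398 in experiment B (a description, since genes share their library), with replicates 1 and 2 of Col-0 and of nrp1-1 nrp2-2 all at -0.353 or lower. It ran from -0.626 to 0.661 in experiment A, where the first library of each genotype other than gcn5-7 arp6-1 lay far from the rest on a first principal component holding 68.17% of the variance.

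Prohibitin levels were highest in the genotypes with mutated NRP1 and NRP2, and 3 of the 5 genes tested rose when these mutations were added to gcn5-7. PHB1 (AT4G28510, chromosome 4, 14084624 to 14086882), a type II prohibitin, read 15, 13.6, 12.2, 9.53 and 11.3 TMM-scaled TPM in Col-0 and 36.2, 26.4, 33.2, 30.7 and 35.8 in nrp1-1 nrp2-2. In gcn5-7 it read 26.7, 27, 18.1, 20.7 and 21.8, and in the triple mutant 48.6, 41.6, 38.5, 33.3 and 39.2. The lowest triple mutant library lay above the highest gcn5-7 library, and the lowest gcn5-7 library above the highest Col-0 library. PHB4 (AT3G27280), a type I prohibitin, read 22.1, 22.2, 19.2, 15.4 and 16.7 in gcn5-7 and 48.3, 53.6, 27.9, 34.1 and 36.7 in the triple mutant. Those groups did not overlap either, and replicates 1 and 2 were the highest of the triple mutant. PHB6 (AT2G20530), the closest type II relative of PHB1, read 43.6, 43.6, 31, 30.4 and 41 in gcn5-7 and 73.1, 78.8, 54.6, 47.5 and 60.3 in the triple mutant, again without overlap.

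**Figure D1:**
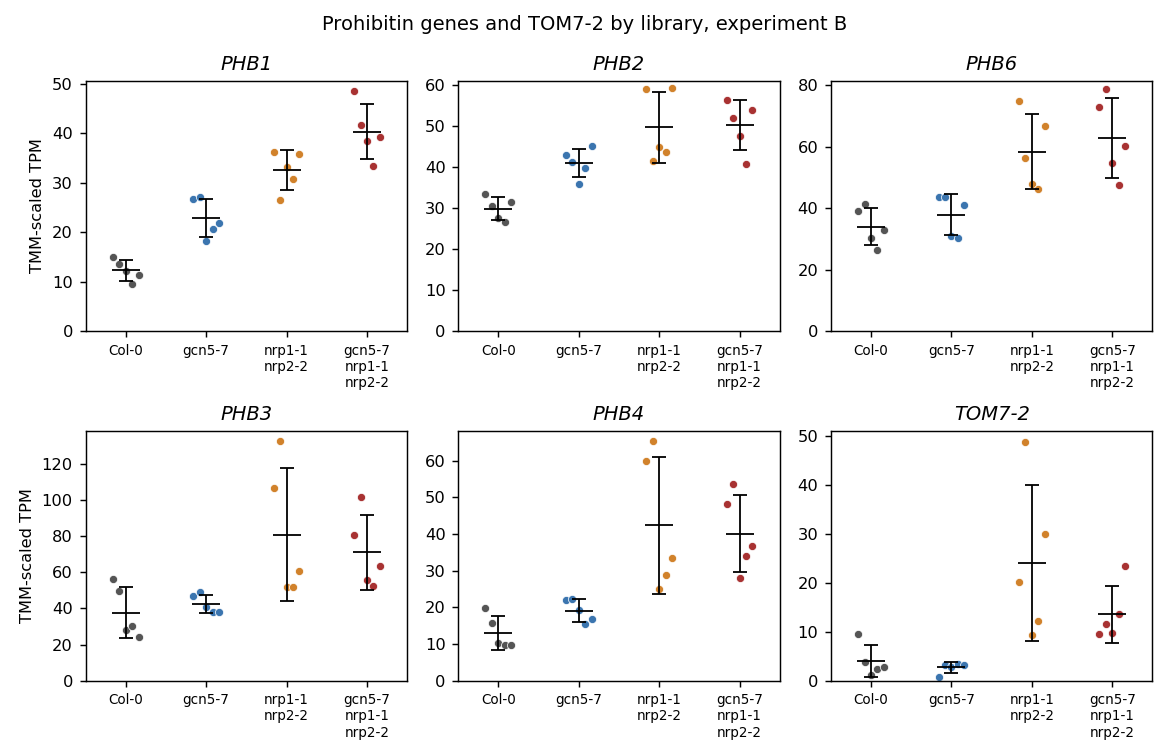
TMM-scaled TPM (linear axes from 0) of 5 prohibitin genes and TOM7-2 in experiment B. Each point is 1 library, offset by replicate number, the long bar is the mean and the whiskers are the SD (n = 5). PHB1 means were 12.3 in Col-0, 22.8 in gcn5-7, 32.5 in nrp1-1 nrp2-2 and 40.3. in gcn5-7 nrp1-1 nrp2-2

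The 5 prohibitins that could be tested share parts of their sequence. The coding sequences of PHB1 and PHB6 were 82.3% identical and those of PHB3 and PHB4 83.2%, with no 50-base window in common. Their upstream regions are shown because site II elements (TGGGCC and the variant TGGGCT) are known from plant genes of mitochondrial and ribosomal proteins. The 120 bases upstream of the annotated start are shown from RefSeq TAIR10.1, 5′ to 3′ on the strand of the gene, with both site II forms (on either strand) in capitals. PHB1 lies at chr4:14086883-14087002 (minus strand), PHB2 at chr1:982003-982122 (minus), PHB6 at chr2:8841852-8841971 (plus), PHB4 at chr3:10076689-10076808 (plus) and PHB3 at chr5:16317292-16317411 (minus).
PHB1: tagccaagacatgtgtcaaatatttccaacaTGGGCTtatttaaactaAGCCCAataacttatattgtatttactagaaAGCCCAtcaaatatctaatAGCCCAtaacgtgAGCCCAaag
PHB2: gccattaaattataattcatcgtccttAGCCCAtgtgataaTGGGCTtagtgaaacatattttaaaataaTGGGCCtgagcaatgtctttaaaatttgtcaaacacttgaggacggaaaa
PHB6: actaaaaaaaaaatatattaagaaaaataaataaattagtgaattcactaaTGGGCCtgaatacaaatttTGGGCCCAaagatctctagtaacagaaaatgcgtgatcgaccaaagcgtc
PHB4: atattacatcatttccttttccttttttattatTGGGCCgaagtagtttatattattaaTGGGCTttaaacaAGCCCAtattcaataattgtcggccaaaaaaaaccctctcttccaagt
PHB3: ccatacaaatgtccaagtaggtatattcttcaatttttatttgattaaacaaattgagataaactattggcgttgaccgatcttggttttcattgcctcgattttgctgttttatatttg

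PHB1 held 5 copies of TGGGCT within these bases, PHB6 held 3 matches of TGGGCC of which 2 overlap on opposite strands, and PHB2 and PHB4 held 1 TGGGCC and 2 TGGGCT each. PHB3 held neither form in the 250 bases searched. Over all 35 genes, TGGGCC occurred within 250 bases upstream of 16 (45.7%), against 13.7% of 27443 promoters, and TGGGCT upstream of 12 (34.3%), against 12.3%. One or the other stood upstream of 22 genes (62.9%), against 19.2% of all promoters. By group these were 5 of 6 prohibitins, 4 of 9 TOM genes, 9 of 13 TIM genes and 4 of 7 matrix chaperones. Some of these windows overlap another annotated gene, as for TOM20-2 and HSP60-2, so a match there may belong to the neighbour. Such windows were kept for the members and over all promoters. The telo-box AAACCCTA was found for 5 (14.3%, against 4.49%) and the heat shock motif GAANNTTC for 3 (8.57%, against 9.55%). A match describes these letters only and says nothing about which factor binds there.

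Loss of NRP1 and NRP2 in plants that already carried gcn5-7 gave a comparison whose groups share no library with the one that chose the set. The standard errors drew on the spread of all libraries of experiment B, those that chose the set included. Between the triple mutant and gcn5-7, 4 of the 33 genes that could be tested rose and 0 fell at an adjusted p below 0.05 (limma, Benjamini-Hochberg over 19507 genes), where 3.21% of all genes tested were called and 2.08% rose. PHB1 rose by 0.80 on the log2 scale (SE 0.16, adjusted p = 0.0109), PHB6 by 0.71 (SE 0.19, adjusted p = 0.043) and PHB4 by 1.01 (SE 0.27, adjusted p = 0.0445). The fourth was TOM7-2, described below. PHB3 (AT5G40770), the main type I prohibitin, differed by 0.69 (SE 0.28, adjusted p = 0.166) and PHB2 (AT1G03860) by 0.28 (SE 0.14, adjusted p = 0.26). The prohibitins thus had 3 of 5 tested members called, and their median change was 0.71, against 0.00 over all genes tested. Scaled to equal library sums, which moved the median of all genes to -0.25, the prohibitin median was 0.43, so the distance from all genes was 0.68 in place of 0.71.

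Deviations of same-numbered libraries of the triple mutant and gcn5-7 correlated at 0.116 to 0.538. The closest gcn5-7 library bore the same number for triple mutant replicates 2 and 4 only. The replicate number was also used as a block. In that fit 8 of the 33 members rose and 1 fell. Over all 19507 genes 2653 rose and 2300 fell, which is 25.4% called. The members' count in both directions together was near that share, while their split leaned more to risers than that of all genes. The split was not tested. PHB3 (adjusted p = 0.00491), MEE67 (0.00238), CPN10 (0.0303) and TOM6 (0.042) joined the risers, and TIM17-1 fell by 0.63 on the log2 scale (adjusted p = 0.0289, limma throughout). PHB1 remained called in 19 of 20 alternatives, the block fits among them, the exception being equal library sums (adjusted p = 0.173, over alternatives 0.000541 to 0.173). The calls of PHB6 and PHB4 were near the threshold. PHB6 kept its call in 9 of 20 alternatives and PHB4 in 10. PHB6 lost it under equal library sums (adjusted p = 0.182), in a fit of these groups only (0.0554), with replicates 3 to 5 only (0.14) and without any of 8 single libraries (triple mutant replicates 1, 2 and 5 and each gcn5-7 replicate; adjusted p 0.0554 to 0.122), and PHB4 with no filter on low values (0.0526) and without any of 9, all but triple mutant replicate 3 (0.0633 to 0.125). Over all alternatives their adjusted p lay between 0.000459 and 0.182 for PHB6 and between 0.000228 and 0.125 for PHB4.

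In the comparison that chose the set, nrp1-1 nrp2-2 against Col-0, the log2 differences were 1.58 for PHB4, 1.34 for PHB1, 1.05 for PHB3, 0.76 for PHB6 and 0.70 for PHB2, with a median of 0.54 over the 33 tested members and -0.05 over all genes. PHB3 read 107 and 133 in replicates 1 and 2 of nrp1-1 nrp2-2 and 52.1, 51.8 and 61 in the others, while Col-0 read 56.2 and 49.8 and then 27.8, 30.4 and 24.4. Both genotypes were higher in replicates 1 and 2, so the groups overlapped although each numbered pair differed the same way. PHB7 (AT5G44140), another type II gene, was barely expressed, with group means of 0.0174 to 0.286 in both tables, and did not pass the filter of a mean of 1 TMM-scaled TPM. TIM44-1 (AT2G20510) was the other gene below it, with means of 0 to 0.472, and TIM23-3 with means of 1.51 to 3.47 in experiment B was the lowest that passed there. Whether NRP loss acts differently with and without GCN5 was not tested.

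**Figure D2:**
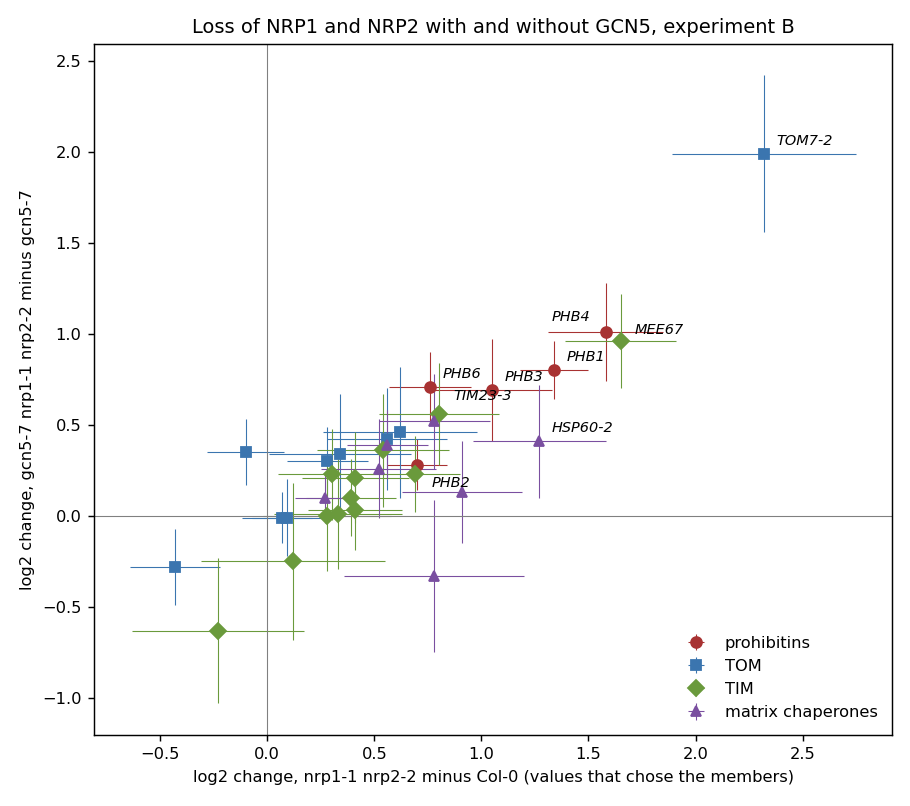
Log2 change of each of the 33 tested genes on loss of NRP1 and NRP2, with GCN5 intact (horizontal, the values on which the set was selected) and in gcn5-7 (vertical), with 1 standard error either way. TOM7-2 lies at 2.32 and 1.99, MEE67 at 1.65 and 0.96, PHB4 at 1.58 and 1.01, and PHB1 at 1.34 and 0.80.

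The balance between prohibitin paralogs differed between genotypes. PHB4 made up 25.9% ± 1.82 of the summed PHB3 and PHB4 level in Col-0 of experiment B, 30.9% ± 1.3 in gcn5-7, 34.4% ± 1.72 in nrp1-1 nrp2-2 and 36.2% ± 2.47 in gcn5-7 nrp1-1 nrp2-2 (SD, n = 5 each). The lowest triple mutant share, 33.2%, lay above the highest gcn5-7 share, 32.1%. Among the type II genes PHB1, PHB2 and PHB6, PHB1 made up 16.1% ± 1.1, 22.4% ± 1.64, 23.3% ± 2.43 and 26.4% ± 1.47 in the same order. Its shares in the triple mutant, 24.1% to 27.4%, met the top of the gcn5-7 range, 20.2% to 24.1%. These shares were not tested.

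At the outer membrane, TOM7-2 (AT1G64220), the less expressed copy of TOM7, a small subunit known from yeast to act in the assembly of the pore, was the member with the largest change on mutation of NRP1 and NRP2. It read 9.52, 3.87, 1.18, 2.35 and 2.79 in Col-0 and 20.1, 48.7, 9.35, 12.2 and 30 in nrp1-1 nrp2-2. In gcn5-7 it read 0.663, 3.27, 2.82, 3.46 and 3.24, and in the triple mutant 9.55, 11.5, 9.65 and 13.6 in replicates 1 to 4 and above 20 in replicate 5. Every triple mutant library was above every gcn5-7 library, and the change was 1.99 on the log2 scale (SE 0.43, adjusted p = 0.0166 by limma). That call ended without triple mutant replicate 5 (adjusted p = 0.0636) or gcn5-7 replicate 1 (adjusted p = 0.0583), and lay between 0.00151 and 0.0636 over all alternatives. Its transcript has only 306 exonic bases, the shortest of the set, and the log2 change after correction for gene length was 2.02. TOM7-2 supplied 4.34% ± 2.94 of the summed TOM7 level in Col-0, 3.15% ± 1.35 in gcn5-7, 20% ± 7.53 in nrp1-1 nrp2-2 and 13.7% ± 3.15 in gcn5-7 nrp1-1 nrp2-2 (SD, n = 5).

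The major copy, TOM7-1, stayed between group means of 81.7 and 86.6, with a log2 difference of -0.01 between triple mutant and gcn5-7 (adjusted p = 0.983). Opposite-strand gene AT5G41680 covers 59.3% of the TOM7-1 locus, and as strand handling is not given, reads of the overlap cannot be told apart. TOM40-1 (AT3G20000), the pore, differed by 0.30 (adjusted p = 0.368). The receptors TOM20-2, TOM20-3 and TOM20-4, which bind presequences, differed by -0.01, 0.35 and -0.28. The small subunits TOM5 and TOM6 and the plant TOM22 counterpart TOM9-2 differed by 0.46, 0.42 and 0.34. By limma 0 of these genes were called. The 9 TOM genes therefore had 1 riser, and their median was 0.34, or 0.05 under equal library sums, where all genes had -0.25. The difference of TOM20-4 between nrp1-1 nrp2-2 and Col-0 was -0.43, with nrp1-1 nrp2-2 replicates 1 and 2 at 19.9 and 12.3 and the other 3 libraries at 31.4 to 33.1.

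In the inner membrane and intermembrane space 0 of 12 tested TIM genes were called between the triple mutant and gcn5-7 by limma, with 1 at an unadjusted p below 0.05 and 1 called when the recovered reads were modelled with voom. Their median was 0.16, or -0.12 under equal library sums, where all genes had -0.25. MEE67 (AT3G10110), a protein of the TIM22 type needed for embryo development, came closest. It read 5.5, 4.72, 3.49, 5.49 and 4.31 in gcn5-7 and 9.29, 13.8, 8.55, 8.63 and 10.5 in the triple mutant, without overlap, at a log2 difference of 0.96 (SE 0.26, adjusted p = 0.0504). Against Col-0, at 2.96, 4.92, 1.7, 3.23 and 1.32, the triple mutant rose by 1.60 (adjusted p = 0.00144). MEE67 is 81.2% identical in coding sequence to its paralog AT1G18320, and 38.7% of its 50-base windows are shared, so the reads of the pair may be split between them. That paralog read 2.72 to 6.3 in gcn5-7 and 4.54 to 13.1 in the triple mutant, a difference of 0.60 (adjusted p = 0.283).

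The pore and presequence genes of the inner membrane gave small values in the same comparison. TIM17-2 and TIM23-1 and TIM23-2, which build the TIM23 channel, differed by 0.23, 0.00 and 0.01, and TIM50, the receptor that hands precursors to the channel, by 0.03. The escorts TIM8, TIM9, TIM10 and TIM13 differed by 0.36, 0.21, 0.10 and 0.23. The lower-expressed copies went apart, with 0.56 for TIM23-3 and -0.63 for TIM17-1 (adjusted p = 0.257 and 0.361). TIM44-2, which tethers HSP70 to the channel, differed by -0.25. TIM10 and TIM23-2 share 42.8% and 26.6% of their loci with other genes, which limits their values in the same way as for TOM7-1.

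Most matrix chaperone genes were higher in gcn5-7 than in Col-0. Between gcn5-7 and Col-0 of experiment B, a comparison that shares its Col-0 libraries with the one that chose the set, 9 of the 33 members rose and 1 fell (limma, adjusted p below 0.05), where 26.2% of 19507 genes were called and 11.6% of the 19507 rose. Of the 7 matrix chaperones, 5 rose, with a family median of 0.83 on the log2 scale against 0.06 over all genes. mtHSC70-2 (AT5G09590), a matrix HSP70 motor and folding protein, read 16.9, 8.5, 30.8, 18.7 and 19.5 in Col-0 and 97.2, 43.7, 69.4, 53.5 and 50.2 in gcn5-7, a rise of 1.73 (SE 0.42, adjusted p = 0.00685). Its main paralog mtHSC70-1 (AT4G37910) read 35.2, 30.6, 47.8, 40.5 and 35.1 and then 76.5, 56, 66.9, 70.5 and 68, a rise of 0.83 (SE 0.19, adjusted p = 0.00523). Neither pair of groups overlapped. A share of 12.2% of the 50-base windows of mtHSC70-2 recurs in AT4G32208, so part of its reads could belong there.

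All 3 chaperonin HSP60 genes rose in gcn5-7. HSP60 (AT3G23990) read 32.4, 27.5, 29.2, 29.9 and 28.1 in Col-0 and 69.2, 38.9, 56.8, 56 and 44.1 in gcn5-7, a rise of 0.80 (SE 0.27, adjusted p = 0.0345). HSP60-2 (AT2G33210) rose by 1.25 (SE 0.31, adjusted p = 0.00776), from a mean of 11.5 to 27.5, and HSP60-3A (AT3G13860) by 1.28 (SE 0.28, adjusted p = 0.00361), from 7.37 to 19.1. The co-chaperonin CPN10 (AT1G14980), the lid of the HSP60 barrel, differed by 0.33 (adjusted p = 0.344), and the HSP70 exchange factor MGE1 (AT5G55200) by 0.11 (adjusted p = 0.566). The HSP60 call ended without any of 7 single libraries (Col-0 replicates 1, 2, 4 and 5, gcn5-7 replicates 1, 3 and 4), with adjusted p from 0.0546 to 0.0957, while the calls of both mtHSC70 genes, HSP60-2 and HSP60-3A were kept in all 20 alternatives run. Their lowest changes over these were 0.51 for mtHSC70-1, 1.31 for mtHSC70-2, 0.88 for HSP60-2 and 1.12 for HSP60-3A. Change followed transcript length across all genes in this comparison (Spearman's rho 0.303). The 5 risers have 2108 to 2733 exonic bases, and CPN10 and MGE1 have 1281 and 1301. The part of length in these changes was not tested.

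**Figure D3:**
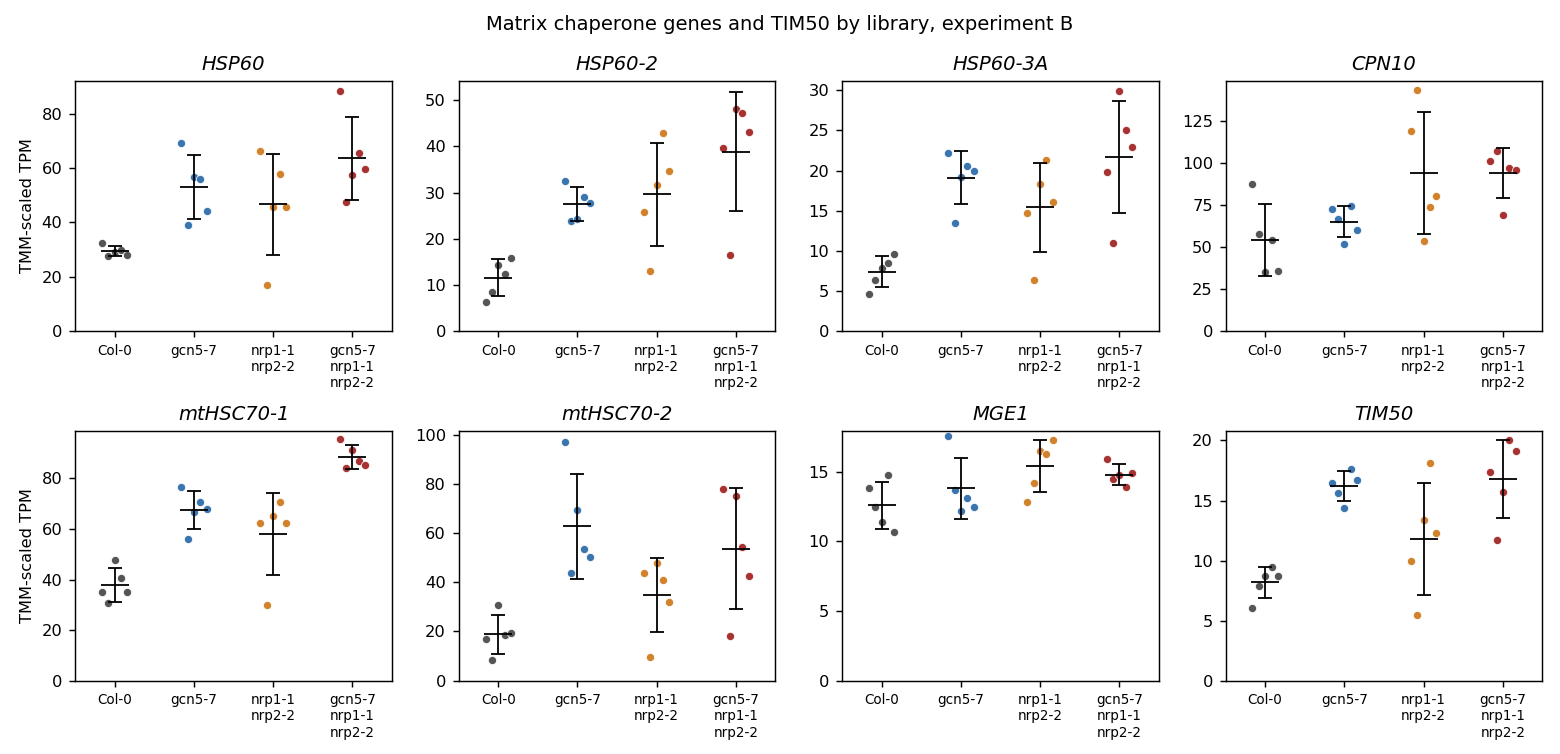
TMM-scaled TPM (linear axes from 0) of the 7 matrix chaperone genes and TIM50 in experiment B, drawn as for the prohibitins, with the mean and SD over 5 libraries. The gcn5-7 libraries of mtHSC70-1 (56 to 76.5) lie above those of Col-0 (30.6 to 47.8), while CPN10 and MGE1 overlap between these groups.

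The other members that moved in gcn5-7 were PHB1, by 0.84 (SE 0.16, adjusted p = 0.00122), PHB2, by 0.44 (SE 0.14, adjusted p = 0.0286), TOM20-2, by 0.46 (adjusted p = 0.0229), TIM50, by 0.91 (SE 0.22, adjusted p = 0.00704), and downward TOM20-3, by -0.51 (adjusted p = 0.042). The Col-0 values of PHB1 and PHB2 entered the choice of the set, so their p-values here are not independent of that choice. TIM50 read 6.09 to 9.5 in Col-0 and 14.4 to 17.6 in gcn5-7. TOM20-3 had a difference of -0.12 under equal library sums (adjusted p = 0.55, and 0.00461 to 0.55 over all alternatives), and its call also ended after length correction (0.102), with the block and length correction (0.0677), with replicates 3 to 5 only (0.165), and without any of 6 single libraries: Col-0 replicates 1 and 2 and gcn5-7 replicates 1, 3, 4 and 5. The calls of PHB2 and TOM20-2 each ended without any of 4 libraries (for PHB2 Col-0 replicates 2 and 4 and for TOM20-2 Col-0 replicates 1 and 5, with gcn5-7 replicates 1 and 5 for both), at adjusted p of 0.0516 to 0.0673 and 0.0521 to 0.0621. Without gcn5-7 replicate 1 the count of called members was 6. Equal library sums raised the median of all genes to 0.41 and the count to 16 risers, where 31.3% of all genes were called. The members' median of 0.64 was then 0.23 above all genes, against 0.18 as deposited.

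Green tissue genes moved at the same time. All 4 markers (CA1, CAB2, RBCS1A and CAB1) fell in gcn5-7, by a median of 1.29 on the log2 scale, and their summed level was 13535 to 36037 in gcn5-7 and 45676 to 82752 in Col-0. Between triple mutant and gcn5-7 their median was 1.09, with CA1 called (1.30, adjusted p = 0.043) and CAB2 and RBCS1A at 1.23 and 0.84 (adjusted p = 0.0803 and 0.142), and the root gene PYK10 fell by 1.41 (adjusted p = 0.0163) after a rise of 1.25 in gcn5-7. The summed root markers were 71.2 to 207 in gcn5-7, 21.4 to 58.7 in the triple mutant and 35.9 to 66.2 in Col-0, and between 1 and 3 of the 4 genes were at 0 in all libraries of a group. Of the 4, only PYK10 passed the filter in experiment B, so the sum describes mainly that gene. The 8 dividing cell markers summed to 60 to 107 in Col-0 (median 67.3) and 97.6 to 110 in gcn5-7 (median 105), with 1 of 8 called upward and a median log2 change of 0.40. Of them, 0 were called between triple mutant and gcn5-7 (limma, with 0 at an unadjusted p below 0.05 and 0 by voom). The summed floral markers stayed below 9 and the summed seed markers below 1 in every group of experiment B. The part of these tissues in the members' changes was not tested, and in bulk seedlings fewer cells of a type and less RNA per cell cannot be told apart.

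Of the matrix chaperones, CPN10 was called between triple mutant and gcn5-7 with the replicate block, as given above. Without the block 0 of 7 were called by limma, 0 reached an unadjusted p below 0.05 and 0 were called by voom. The median of these genes was 0.26, or -0.02 under equal library sums, where all genes had -0.25. Differences were 0.39 for mtHSC70-1, -0.33 for mtHSC70-2, 0.26 for HSP60, 0.41 for HSP60-2, 0.13 for HSP60-3A, 0.52 for CPN10 and 0.10 for MGE1. mtHSC70-1 read 95.6, 84.2, 91.1, 86.8 and 85.3 in the triple mutant, above all gcn5-7 libraries, at an adjusted p of 0.247, or 0.0209 with a difference of 0.59 after length correction. Against nrp1-1 nrp2-2, a comparison in which only a description is given, the median of the triple mutant was 0.50 over these 7 genes and 0.02 over the prohibitins, with 0.10 over all genes.

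Against Col-0, with libraries shared with the comparison that chose the set, the triple mutant had 11 of 33 members higher and 0 lower (limma), where 2.43% of 19507 genes were called. PHB1 rose by 1.64 (SE 0.16, adjusted p = 1.05e-05), PHB4 by 1.57 (adjusted p = 0.00187), PHB6 by 0.86 (adjusted p = 0.013) and PHB2 by 0.72 (adjusted p = 0.00628). mtHSC70-1 rose by 1.22 (adjusted p = 0.000944), HSP60-2 by 1.66 (adjusted p = 0.00462) and HSP60-3A by 1.41 (adjusted p = 0.00715). The rest were MEE67, given above, with TOM7-2, TIM50 and HSP60 at 1.69, 0.94 and 1.06 (adjusted p = 0.0388, 0.0238 and 0.0377). The Col-0 values of the prohibitins entered the choice of the set. Low values there favour these rises, so the prohibitin p-values are not independent of that choice. The median over members was 0.55, against 0.03 over all genes. Deviations of same-numbered libraries correlated at 0.276 to 0.757 here. With the replicate block 16 rose and 0 fell, where 9.16% of all genes were called, adding PHB3, TOM20-2, TIM13, CPN10 and mtHSC70-2. Equal library sums ended the calls of HSP60-3A, HSP60 and TIM50 (adjusted p = 0.0661, 0.133 and 0.162, with 5.27e-05, 0.000711 and 0.00168 as the lowest over all alternatives). Single libraries ended the calls of 3 members. TOM7-2, which kept its call in 8 of 20 alternatives, lost it with a pseudocount of 0.1 (adjusted p = 0.0525), with no filter (0.0547), by voom (0.055) and without any of 9 libraries, all but Col-0 replicate 1 (0.0542 to 0.122). The same happened to HSP60 without any of 9, all but triple mutant replicate 2 (0.0625 to 0.123) and to TIM50 without any of 5, Col-0 replicates 1 and 2 and triple mutant replicates 1, 4 and 5 (0.0531 to 0.077).

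The other import and assembly genes were compared as a list of 24, of which 22 could be tested. Between triple mutant and gcn5-7, 3.21% of all genes tested were called and 2.08% rose. Of the 22 genes, 3 rose and 0 fell, at a median of 0.20. They were ERV1, the oxidase of the intermembrane space import relay, by 0.83 (SE 0.20, adjusted p = 0.0316), MGE2, the paralog of MGE1, by 0.70 (SE 0.17, adjusted p = 0.0331), and AT1G23100, a paralog of CPN10, by 1.57 (SE 0.40, adjusted p = 0.0389). MGE2 read 8.26, 8.71, 6.8, 9.82 and 7.08 in Col-0, 17.2, 16.7, 12.1, 13.4 and 12.6 in gcn5-7, and 28.9, 19.9, 20.3, 25.3 and 26.2 in the triple mutant, with no overlap from one group to the next. MGE1 itself was at means of 12.6, 13.8 and 14.8 in these groups. The other lists had 0 calls in that comparison by limma and by voom, among 8 prohibitin partners and proteases (1 at an unadjusted p below 0.05), 8 carriers and porins (2), 22 respiratory chain genes (1), 18 plastid import and chaperonin genes (5) and 9 tested mitochondrial stress markers (1). The medians of these lists were -0.02, 0.02, 0.04, 0.25 and -0.32.

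In gcn5-7 against Col-0 the same lists gave 4 risers and 1 faller among the import genes, 2 risers among the prohibitin partners and proteases, 2 among carriers and porins, 1 among respiratory chain genes, 1 riser and 3 fallers among plastid genes, and 3 risers and 1 faller among the stress markers. Of all genes, 26.2% were called in that comparison. The respiratory chain list, with 1 of 22 tested, lay below that share, the stress markers lay above it, and the other lists lay near it. These counts were not tested and are read as no result about the lists. ERV1 was the faller of the import list (-0.78, adjusted p = 0.00928) and MGE2 a riser (0.75, adjusted p = 0.00496). Named after their values were seen, the outer membrane receptor OM64 and the matrix protease LON1 rose in gcn5-7 by 1.14 and 1.33 and in the triple mutant against Col-0 by 1.80 and 1.91. Transcripts of the mitochondrial genome had a median share of 0.0371% of the summed TMM-scaled TPM in Col-0, 0.036% in gcn5-7, 0.00766% in nrp1-1 nrp2-2 and 0.0123% in gcn5-7 nrp1-1 nrp2-2. The part of that difference in the members' values was not tested.

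Experiment A followed the same genes without ARP6. Members overlapped widely between Col-0, gcn5-7 and arp6-1, and replicate 1 of these groups often lay at the end of the range. TOM5, a small subunit with a transcript of 754 exonic bases, read 438 and 62.8 in Col-0, 375, 90.8 and 96.1 in gcn5-7, 747, 136 and 99.6 in arp6-1 and 42.5, 44.4 and 33.2 in gcn5-7 arp6-1. HSP60, with 2275 bases, went the other way, at 17.3 and 106 in Col-0, 13.2, 52.1 and 82 in gcn5-7, 11.4, 46.1 and 55.4 in arp6-1 and 68.5, 86.6 and 96.9 in the double mutant. In replicate 1 of the first 3 groups TOM5 was at its highest and HSP60 at its lowest. PHB3, of 2161 bases, was closer between replicates, at 79.9 and 80.6 in Col-0, 97.1, 74.9 and 89.4 in gcn5-7, 89.1, 105 and 99.2 in arp6-1, and 40.1, 36.6 and 42.4 in the double mutant, where all 3 libraries were lower than every other.

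Between gcn5-7 arp6-1 and gcn5-7, 0 of 33 members rose and 4 fell (limma, adjusted p below 0.05), where 13.7% of 18322 genes were called, with 3.88% of all genes downward. PHB4 read 37.2, 34.7 and 39.8 in gcn5-7 and 10.4, 9.24 and 10.8 in the double mutant and fell by 1.78 on the log2 scale (SE 0.29, adjusted p = 0.00482). MEE67 read 16.2, 10.3 and 13.2 and then 3.72, 3.15 and 2.83, and fell by 1.73 (SE 0.33, adjusted p = 0.00879). PHB3 fell by 1.11 (SE 0.30, adjusted p = 0.0331) and CPN10, at 414, 262 and 201 and then 76.9, 73.2 and 77.1, by 1.87 (SE 0.53, adjusted p = 0.0411). For none of these 4 did the groups overlap. The type II prohibitins PHB1, PHB2 and PHB6 had differences of -0.45, 0.16 and -0.53, with overlapping libraries.

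Medians in that comparison were -0.53 for prohibitins, -1.31 for TOM, -1.39 for TIM and 0.57 for matrix chaperones, against 0.12 over all genes. Change followed transcript length across all genes (Spearman's rho 0.582) and across the members (0.616). After removal of the length trend within each library, the members' median went from -0.76 to -0.32, the TOM and TIM medians stood at -0.72 and -0.79 relative to that of all genes, and 0 rose and 6 fell, where 12.6% of all genes were called, with PHB4 at -1.54, MEE67 at -1.42, PHB3 at -1.40 and CPN10 at -1.40. TOM7-2 at -1.33 (adjusted p = 0.0466) and TIM13 at -1.12 (adjusted p = 0.0126) joined them. The HSP60 and HSP70 genes were at 0.53 to 1.27 before that step and -0.11 to 0.72 after it, and 0 of these 5 were called in either. Equal library sums ended the calls of PHB3, PHB4 and MEE67 (adjusted p = 0.272, 0.0923 and 0.0576), and quantile normalization also ended that of PHB3 (0.0826). Over all alternatives the adjusted p of these genes lay between 0.00154 and 0.272, 0.000128 and 0.0923, and 0.000478 and 0.0576. MEE67 lost its call without gcn5-7 arp6-1 replicate 2 (0.0539), PHB3 without any of the 6 libraries (0.0641 to 0.154) and CPN10 without any of 5, all but gcn5-7 replicate 3 (0.0893 to 0.153).

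**Figure D4:**
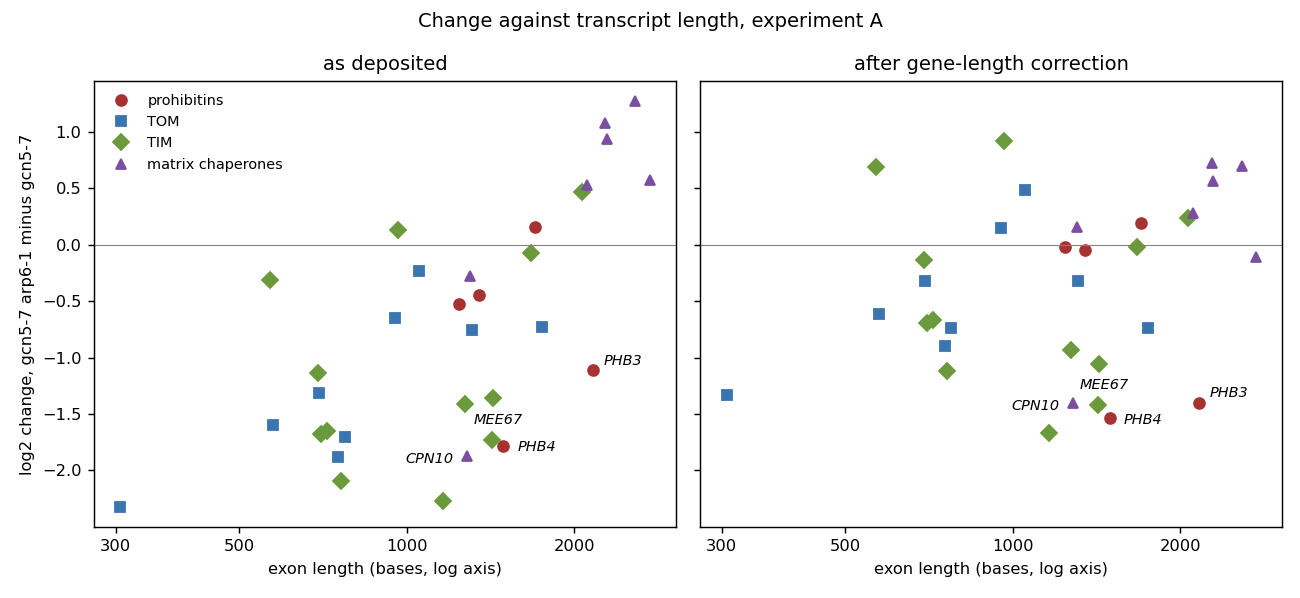
Log2 change between gcn5-7 arp6-1 and gcn5-7 in experiment A against exon length (bases, log axis) for the 33 tested genes, as deposited (left) and after removal of the length trend (right). PHB4 lies at -1.78 and -1.54, PHB3 at -1.11 and -1.40, and CPN10 at -1.87 and -1.40, while the matrix HSP70 and HSP60 genes at the long end move towards 0.

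The double mutant against Col-0 of experiment A had 0 risers and 2 fallers, PHB4 (-1.46, SE 0.33, adjusted p = 0.0481) and MEE67 (-1.85, SE 0.37, adjusted p = 0.037), where 2.06% of 18322 genes were called by limma. The members' median was -0.81, against 0.18 over all genes, and 0.09 after the length correction, which left 1 faller, MEE67, where 0.955% of all genes were called. Only 2 Col-0 libraries enter, and they lie at opposite ends of the length trend (rho -0.626 and 0.559). Both calls ended without Col-0 replicate 1 or any 1 of the 3 double mutant libraries (adjusted p 0.119 to 0.264 for PHB4, 0.0748 to 0.355 for MEE67), and without Col-0 replicate 2 the count was 15 of 33, where 39.4% of all genes were called.

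Each single mutant of experiment A had 0 called members by limma without the replicate block and 0 by voom. For gcn5-7 against Col-0, 0 members reached an unadjusted p below 0.05, 0.142% of all genes were called, and the members' median was -0.08. The chaperones that rose in experiment B had differences of 0.21 for mtHSC70-2, 0.37 for mtHSC70-1, -0.15 for HSP60, -0.23 for HSP60-2 and -0.11 for HSP60-3A, with standard errors of 0.53 to 0.93. For arp6-1 against Col-0, 1 member reached an unadjusted p below 0.05, 0.0164% of genes were called, and the median was 0.02. That member was TIM17-1 (AT1G20350), a channel subunit copy of low level, at 4.09 and 2.39 in Col-0 and 34.1, 11.1 and 8.82 in arp6-1, a difference of 1.95 (SE 0.68, adjusted p = 1). With the replicate block its difference was 2.27 (limma, adjusted p = 0.141). The log2 change on ARP6 loss in gcn5-7, minus that with GCN5 intact, was also fitted without length correction. In that limma contrast 0 of 33 members were called, where 252 of 18322 genes were called. An unadjusted p below 0.05 was reached by 6 members, and the members' median was -1.16.

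**Figure D5:**
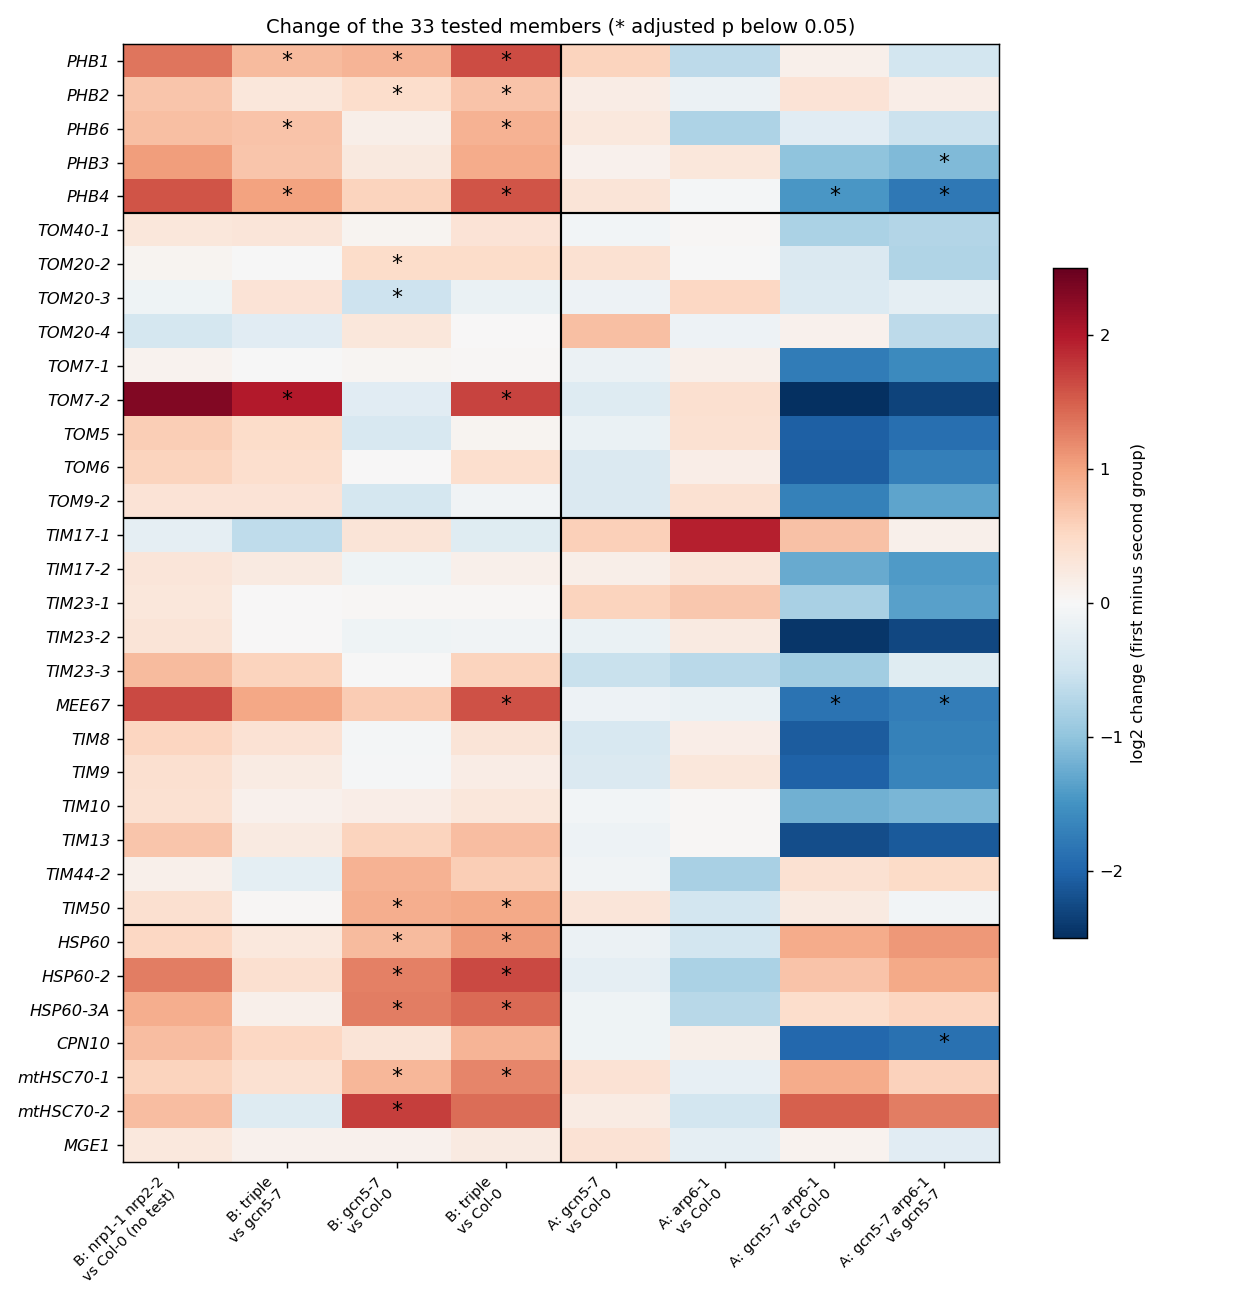
Log2 changes of the 33 tested genes (rows, grouped as prohibitins, TOM, TIM and matrix chaperones) in 4 comparisons of experiment B (left) and 4 of experiment A (right), with an asterisk at an adjusted p below 0.05 (limma) and no test in the first column. TOM7-2 runs from 2.32 in nrp1-1 nrp2-2 to -2.64 in gcn5-7 arp6-1, each against its own Col-0. The value of 2.32 is from the comparison that chose the set. The value of -2.64 was not called, and change in that comparison followed transcript length across all genes (Spearman's rho 0.65), with TOM7-2 the shortest of the set at 306 bases.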

How the data were processed

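The members, gene lists and tests were chosen with earlier results of these data known. Per the submitters' processing notes, reads were handled with fastp 0.23.4 and HISAT2 2.2.1 on TAIR10; how reads were counted, and whether by strand, is not given there. The deposited values are a signal, TPM scaled by TMM by the authors in 2 separate tables. Reads per gene were recovered from the value steps and RefSeq exon lengths (99.1% to 99.7% of values below 20 reads whole within 0.05). In R 4.3.3, limma 3.58.1 was fitted to log2(value + 1) for genes with a mean of at least 1, with all groups of a table in 1 fit, mean-variance trend, robust estimation and Benjamini-Hochberg adjustment over 19507 genes (B) or 18322 (A), called at 0.05. Fold changes on that scale understate low genes. The pipeline was tested on simulated data. All 35 members and the 4 mutated genes are named, with the 3 smallest adjusted p of each other list that has a call between triple mutant and gcn5-7. Green, root, floral, seed and dividing cell marker lists were read in the same way. Gene positions and upstream sequences are from RefSeq TAIR10.1, matched by locus.

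Replicate numbers were taken to pair libraries where the deviations from group means correlated above 0.1 for every number. This held for triple mutant with gcn5-7 (0.116 to 0.538) and with Col-0 (0.276 to 0.757). In experiment A it held for Col-0 with gcn5-7 (0.573 to 0.859) and with arp6-1 (0.401 to 0.791). The rule did not hold for gcn5-7 with Col-0 in experiment B (lowest 0.0185), gcn5-7 arp6-1 with Col-0 (lowest 0.0386) or gcn5-7 arp6-1 with gcn5-7 (lowest 0.0407). It does not ask that the same-numbered library be the closest. Between triple mutant and gcn5-7 this was so for numbers 2 and 4 only, and between gcn5-7 and Col-0 of experiment B for all but number 1. Alternatives were another pseudocount (0.1), no filter, equal sums, quantile normalization, length correction (lowess, span 0.3), blocks, single libraries left out, and voom on recovered reads, the last chosen after seeing the data.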

Additional observations from a re-analysis of the deposited data

Results flagged for a closer look

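Within the groups of 5 libraries in experiment B, 8 of 132 member groups had 1 library far from the other 4 by Dixon's criterion, and chance alone flags about 1 in 20 groups. Replicate 2 of nrp1-1 nrp2-2 stood low for 3 matrix chaperones. HSP60 read 17 there against 45.7 to 66.4, mtHSC70-1 read 29.9 against 62.2 to 70.8, and mtHSC70-2 read 9.81 against 31.8 to 48 TMM-scaled TPM. Replicate 2 of the triple mutant stood low for HSP60-2, at 16.4 against 39.6 to 48.2, and for TOM20-4, at 24.4 against 34.4 to 36.9. TOM7-2 read 0.663 in gcn5-7 replicate 1 against 2.82 to 3.46 in the others. TOM40-1 read 43.3 in nrp1-1 nrp2-2 replicate 3 against 60.2 to 68.2, and CPN10 read 68.7 in triple mutant replicate 3 against 95.5 to 107.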

How the results depend on the processing

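Over 31 called changes and 594 recomputed values, 481 kept their direction and call, 113 lost the call and 0 reversed. Counts of called members moved most. Between triple mutant and gcn5-7 the 4 became 2 under equal sums, 2 with replicates 3 to 5 only and 1 to 5 with 1 library left out (1 without triple mutant replicate 5 or gcn5-7 replicate 1). Between gcn5-7 and Col-0 of experiment B the 10 became 16 under equal sums and 6 to 10 with 1 library left out (all genes 31.3% under equal sums), and for triple mutant against Col-0 the 11 became 8 to 11. Between gcn5-7 arp6-1 and Col-0 the 2 became 0 with a pseudocount of 0.1, equal sums, a fit of these groups only or voom, 1 with length correction, 11 with a term for the libraries that stand apart (all genes 13.7%), and 0 to 15 with 1 library left out. Between gcn5-7 arp6-1 and gcn5-7 the 4 became 11 with quantile normalization, 14 in a fit of these groups only and 23 with that term, where all genes called went from 13.7% to 19.9%, 26.8% and 40.6%, and 1 to 3 with 1 library left out. For arp6-1 the term gave 1, TIM17-1. The members' median between triple mutant and nrp1-1 nrp2-2, -0.05, was 0.24 under equal sums and 0.13 with length correction, and -0.11 to 0.09 with 1 library left out. Over all genes that median was 0.10, or 0.33 under equal sums and 0.06 with length correction. The median of nrp1-1 nrp2-2 against Col-0, 0.54, was 0.43 to 0.58. The cause of these moves was not tested.

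With the replicate block, 9 members were called between triple mutant and gcn5-7, 14 between gcn5-7 and Col-0 of experiment B, 16 between triple mutant and Col-0, 9 between gcn5-7 arp6-1 and Col-0, and 16 between gcn5-7 arp6-1 and gcn5-7. The shares of all genes called in these fits were 25.4%, 49.8%, 9.16%, 13.5% and 37.9%. The block with length correction gave 9, 16, 18, 6 and 12 in that order (all genes 25%, 46.8%, 10.7%, 5.34% and 27.5%), and a median of 0.13 between triple mutant and nrp1-1 nrp2-2. By the rule given above, the numbers do not pair gcn5-7 with Col-0 of experiment B, or gcn5-7 arp6-1 with either Col-0 or gcn5-7. Only 2 numbers are shared with Col-0 in experiment A. Levels near 1 TMM-scaled TPM rest on few reads, as for TIM23-3, and the 2 Col-0 libraries limit every comparison with wild type in experiment A.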
